A study of Homo sapiens with 12 samples.

Results

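Transcripts of 9 human cell death genes were followed in HT1080 cells, a human fibrosarcoma line, with and without interferon beta (IFNB). The genes were given as a list of names that covers a death ligand (TNFSF10), initiator and inflammatory caspases (CASP8, CASP1, CASP4), a caspase-8 regulator (CFLAR), an antagonist of inhibitor-of-apoptosis proteins (XAF1), a mitochondrial pore protein (BAK1) and the pore formers of pyroptosis and necroptosis (GSDMD, MLKL). All 9 were found among the 60669 gene identifiers of the deposited count table.

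TNFSF10, called TRAIL as a protein, binds death receptors on a target cell, and the receptors recruit the adaptor FADD and caspase-8, which starts apoptosis unless the CFLAR product, cFLIP, occupies the complex. Caspase-1 and caspase-4 instead cut gasdermin D, whose freed end forms pores in pyroptosis, and MLKL forms membrane lesions in necroptosis after RIPK3 phosphorylates it. Several of these genes are known targets of type I interferon, which many tumour cells can sense through its receptor.

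Every cell carried stably expressed dCas9, a Cas9 that binds DNA without cutting it, and was kept under blasticidin and puromycin to hold dCas9 and the guide RNA. LTR8B cells, genotype dCas9_CRISPRi_LTR8B.SP140, carried a guide RNA to an LTR8B repeat in intron 1 of SP140. GFP cells, genotype dCas9_CRISPRi_GFP, carried a guide RNA to GFP, the control of the study. Cells of either genotype were given IFNB at 10 U/mL for 4 h or left untreated. There were 4 LTR8B IFNB, 4 LTR8B untreated, 2 GFP IFNB and 2 GFP untreated libraries of polyadenylated RNA. The labels do not say whether each stable line came from 1 clone or whether replicates were separate cultures, so every p-value speaks only for the spread among these libraries, which may be technical.

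Library totals ran from 12404270 counts in LTR8B IFNB replicate 3 to 28801579 counts, and a count of 0 allows up to 3 counts, or 0.1005 to 0.244 CPM, for counting error only. CPM here means counts per 1e+06 counts after scaling between libraries by the trimmed mean of M-values (TMM). SP140 stood at 0.901 to 1.48 CPM in LTR8B IFNB and 0.515 to 1.84 CPM in LTR8B untreated libraries, against 29.8 to 32.0 CPM in GFP IFNB and 29.8 to 30.8 CPM in GFP untreated libraries, so each library matched its guide label. All 6 interferon check genes (IFIT1, IFIT3, ISG15, MX1, OAS1, RSAD2) were higher with IFNB, by 2.42 to 11.71 on the log2 scale in LTR8B cells and 2.69 to 12.46 in GFP cells. RSAD2, which sets the upper end of both ranges, had 0 to 3 counts in LTR8B untreated and 0 to 1 in GFP untreated libraries. It passed the low-count filter through its IFNB libraries alone and so had to differ. In each group 7 of 8 mesenchymal markers had a mean of at least 1 CPM, THY1 being the exception, and 0 of 6 epithelial markers did. Among haematopoietic markers 1 of 8 did, CD68, while PTPRC had 0 or 1 count per library, and among neural markers 2 of 5 did, SNAP25 and MAP2, while SOX10 had 0 or 1 count. The summed haematopoietic markers stood at 115 to 134 CPM in LTR8B IFNB against 91.2 to 109 CPM in LTR8B untreated libraries, and at 118 to 124 CPM in GFP IFNB against 97.1 to 104 CPM in GFP untreated libraries, nearly all of it CD68. The summed neural markers stood at 19.5 to 25.1 CPM in LTR8B IFNB against 10.6 to 13.9 CPM in LTR8B untreated libraries, and at 25.9 to 26.0 CPM in GFP IFNB against 12.7 to 13.0 CPM in GFP untreated libraries, mostly MAP2. Any part of these markers in the IFNB responses below was not tested.

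Promoter windows of 300 bases, 250 before and 50 from the start of transcription on, were available from RefSeq (GRCh38.p14) for 7 of the 9 genes, with 13 windows in all for alternative starts. They are shown for TNFSF10 and XAF1, which had the largest responses to IFNB, and for CASP8, in the window that held both motifs searched. Capitals mark matches to GAAANNGAAA, the repeat bound by interferon regulatory factors, which on the other strand reads TTTCNNTTTC, and to TTCNNNGAA, the palindrome bound by STAT dimers, which reads alike on both strands. The TNFSF10 window lies on the minus strand at chr3:172523381-172523680, the XAF1 window on the plus strand at chr17:6755197-6755496, and the CASP8 window on the plus strand at chr2:201233213-201233512.
TNFSF10: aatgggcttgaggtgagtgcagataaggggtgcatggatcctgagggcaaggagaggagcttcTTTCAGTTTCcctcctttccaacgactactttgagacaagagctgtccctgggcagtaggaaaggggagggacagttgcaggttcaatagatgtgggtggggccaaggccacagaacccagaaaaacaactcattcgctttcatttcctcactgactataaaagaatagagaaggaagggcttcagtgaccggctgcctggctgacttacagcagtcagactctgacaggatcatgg
XAF1: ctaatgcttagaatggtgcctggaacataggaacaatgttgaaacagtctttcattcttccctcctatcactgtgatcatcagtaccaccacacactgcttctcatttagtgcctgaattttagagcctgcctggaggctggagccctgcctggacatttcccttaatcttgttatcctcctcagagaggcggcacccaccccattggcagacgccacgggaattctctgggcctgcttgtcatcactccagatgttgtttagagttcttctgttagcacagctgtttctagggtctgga
CASP8: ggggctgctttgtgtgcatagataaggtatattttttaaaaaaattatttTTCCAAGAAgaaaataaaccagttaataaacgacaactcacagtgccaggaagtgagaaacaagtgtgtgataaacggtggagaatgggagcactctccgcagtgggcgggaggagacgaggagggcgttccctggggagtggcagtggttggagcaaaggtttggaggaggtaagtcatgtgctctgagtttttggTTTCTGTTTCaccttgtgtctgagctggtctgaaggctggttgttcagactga
The repeat began at position -187 in the TNFSF10 window and at position -3 in the CASP8 window, both on the other strand, and the palindrome began at position -200 in the CASP8 window. No match stood in the XAF1 window, which says only that these letters are not in this stretch. The repeat occurred in 2 of the 13 windows and in 3.57% of all 35116 RefSeq promoter windows, and the palindrome in 1 of the 13 and in 7.66% of all. No motif overlapped another.

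The response to IFNB was compared within each genotype, and the values by library are plotted for all 9 genes. In LTR8B cells all 9 genes rose with IFNB, and in GFP cells 7 rose while BAK1 and GSDMD did not pass the test. These calls are edgeR quasi-likelihood tests over 16393 genes at a Benjamini-Hochberg adjusted p under 0.05. For comparison, 4.01% of all tested genes were called higher and 0.482% lower in LTR8B cells, and 3.06% higher and 0.134% lower in GFP cells. The 9 genes were chosen with earlier results of these data known. Setting them against all tested genes, here and below, is therefore no independent test. XAF1 passed the low-count filter through its IFNB libraries alone and so had to differ. Among the 8 genes that passed the filter in both treatments taken alone, 8 rose in LTR8B cells and 6 rose in GFP cells. All IFNB libraries stood above all untreated ones for each of the 9 genes in both genotypes, as they did for 6.16% of all tested genes in LTR8B cells and for 22.6% in GFP cells, where 2 libraries met 2. The median log2 fold change over the 9 genes was 0.64 in LTR8B cells and 0.57 in GFP cells, against -0.01 and -0.01 over all tested genes. As cells were measured in bulk, fewer cells that express a gene cannot be told apart from less RNA per cell.

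**Figure D1:**
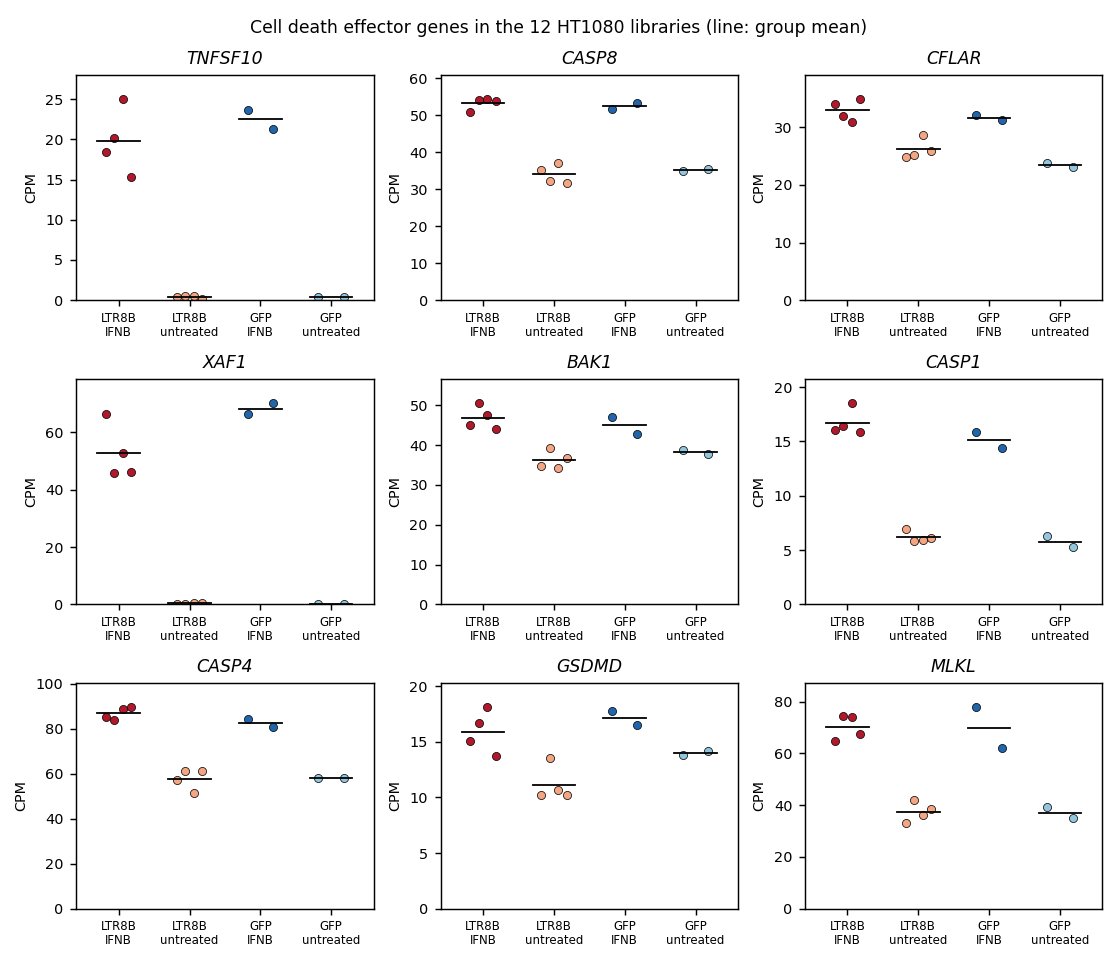
CPM of each gene on a linear axis from 0, with 1 point per library and a line at the group mean, for LTR8B IFNB (n = 4), LTR8B untreated (n = 4), GFP IFNB (n = 2) and GFP untreated (n = 2) libraries. Points of the IFNB libraries lie above all untreated points of the same genotype in all 9 panels, from TNFSF10 (15.3 to 25.1 CPM in LTR8B IFNB against 0.103 to 0.569 CPM in LTR8B untreated) to GSDMD (13.7 to 18.1 CPM in LTR8B IFNB against 10.2 to 13.6 CPM in LTR8B untreated).

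TNFSF10 (ENSG00000121858.11, chromosome 3, 172505508 to 172523507, minus strand, hg38), the TRAIL ligand, was nearly silent without IFNB. Its level was 18.4, 20.2, 25.1 and 15.3 CPM in LTR8B IFNB libraries, against 0.415, 0.515, 0.569 and 0.103 CPM in LTR8B untreated libraries. GFP IFNB libraries had 23.7 and 21.3 CPM, against 0.340 and 0.377 CPM in GFP untreated libraries. The untreated values rest on 2 to 17 counts per library and the IFNB values on 289 to 497, and the 2 treatments did not overlap in either genotype. TNFSF10 rose by 5.53 on the log2 scale in LTR8B cells (SE 0.31, edgeR adjusted p = 2.42e-11) and by 5.96 in GFP cells (SE 0.46, edgeR adjusted p = 1.59e-09). Replicate 4 of LTR8B cells had the lowest value of its treatment, both with IFNB and untreated.

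The other genes of the ligand and receptor step showed no call. Of 5 further death ligands (FASLG, TNF, LTA, TNFSF14, TNFSF12) 2 passed the low-count filter, and 0 of them passed the test in either genotype. Of 9 death receptors 6 were tested and 0 passed, with median log2 fold changes of 0.01 in LTR8B cells and 0.04 in GFP cells. The TRAIL receptors were singled out for their role after their values were seen. TNFRSF10B, which encodes the death-inducing receptor DR5, stood at 331 ± 17.1 CPM in LTR8B IFNB and 328 ± 13.1 CPM in LTR8B untreated libraries (SD, n = 4 each). In GFP cells it stood at 346 ± 6.24 CPM with IFNB and 332 ± 9.14 CPM untreated (SD, n = 2 each). Its fold changes of 0.01 (95% interval -0.10 to 0.12) in LTR8B cells and 0.06 (-0.10 to 0.21) in GFP cells are on the log2 scale and did not pass. TNFRSF10A, the other death-inducing TRAIL receptor, had 0 to 2 counts per library, and the decoys TNFRSF10C and TNFRSF10D had 5 to 22 and 0 to 5 counts. TNFRSF10B itself had 4069 to 9628 counts per library.

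Among adaptors of the receptor complex, 2 of 5 rose in each genotype, RIPK1, a kinase of that complex, and CYLD, a deubiquitinase that acts on RIPK1. RIPK1 rose by 0.48 in LTR8B cells (SE 0.06, edgeR adjusted p = 2.86e-05) and by 0.49 in GFP cells (SE 0.08, edgeR adjusted p = 0.00130) on the log2 scale. CYLD rose by 0.27 in LTR8B cells (edgeR adjusted p = 0.0194) and by 0.41 in GFP cells (edgeR adjusted p = 0.0165). The LTR8B call was lost without LTR8B untreated replicate 1 or 2 or LTR8B IFNB replicate 1 or 4 (edgeR adjusted p of 0.0524 to 0.0789). In GFP cells the call needed both untreated libraries and IFNB replicate 2, and was lost on leaving out any of these 3 (edgeR adjusted p of 0.0736 to 0.253). FADD, TRADD and TRAF2 did not pass in either genotype.

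CASP8 (ENSG00000064012.22, chromosome 2, 201233443 to 201287711, plus strand), the initiator caspase of the TRAIL receptor complex, stood at 51.0, 54.1, 54.5 and 53.8 CPM in LTR8B IFNB libraries, against 35.1, 32.2, 37.2 and 31.7 CPM in LTR8B untreated libraries. With IFNB the GFP libraries gave 51.6 and 53.3 CPM, against 34.9 and 35.5 CPM in GFP untreated libraries. No IFNB library fell within the untreated range. The gene rose by 0.64 on the log2 scale in LTR8B cells (SE 0.06, edgeR adjusted p = 1.23e-06) and by 0.57 in GFP cells (SE 0.09, edgeR adjusted p = 4.48e-04).

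CFLAR (ENSG00000003402.20, chromosome 2, 201116104 to 201176687, plus strand), whose product blocks or tunes caspase-8, had 34.1, 32.0, 31.0 and 35.0 CPM in LTR8B IFNB libraries, against 24.9, 25.2, 28.7 and 25.9 CPM in LTR8B untreated libraries. In GFP IFNB libraries the values were 32.1 and 31.3 CPM, against 23.8 and 23.2 CPM in GFP untreated libraries. The treatments did not overlap, and LTR8B untreated replicate 3 came nearest to the IFNB range. CFLAR rose by 0.34 in LTR8B cells (SE 0.07, edgeR adjusted p = 0.00518) and by 0.43 in GFP cells (SE 0.10, edgeR adjusted p = 0.0148) on the log2 scale. In GFP cells that call was lost without any 1 of the 4 GFP libraries, with edgeR adjusted p of 0.0791 to 0.174 and fold changes of 0.41 to 0.45.

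CASP8 and CFLAR lie side by side on chromosome 2 with CASP10, another initiator caspase, between them. CASP10 rose with IFNB by 1.04 in LTR8B cells (SE 0.10, edgeR adjusted p = 8.05e-07) and by 0.89 in GFP cells (SE 0.14, edgeR adjusted p = 4.93e-04) on the log2 scale. Its level was 15.4 ± 0.976 CPM in LTR8B IFNB and 7.48 ± 0.904 CPM in LTR8B untreated libraries (SD, n = 4 each). All 3 genes of this cluster thus rose in both genotypes, CASP10 with the largest fold change of the 3. Of the 7 further caspases reported here 4 were tested, and of these CASP10 passed the test in each genotype and 0 fell.

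XAF1 (ENSG00000132530.17, chromosome 17, 6755447 to 6775647, plus strand), whose product binds XIAP and counters its block of caspases, had the largest fold change of the 9 genes in both genotypes. It stood at 66.3, 45.7, 53.0 and 46.3 CPM in LTR8B IFNB libraries, against 0.231, 0.155, 0.569 and 0.360 CPM in LTR8B untreated libraries. With IFNB the GFP libraries gave 66.4 and 70.3 CPM, against 0.227 and 0.141 CPM in GFP untreated libraries. Untreated libraries held 3 to 17 counts and IFNB libraries 651 to 1414, so the 2 treatments were far apart and the size of the fold rests on few untreated counts. XAF1 rose by 7.20 in LTR8B cells (SE 0.35, edgeR adjusted p = 3.45e-13) and by 8.46 in GFP cells (SE 0.64, edgeR adjusted p = 1.77e-11) on the log2 scale. PRAL, on the opposite strand, overlaps 2535 of the 6615 exonic bases of XAF1 and had 0 to 8 counts per library, and since strand use in counting is not given in the sources used here, reads of the 2 genes cannot be told apart.

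Among 7 genes for inhibitor-of-apoptosis proteins and their antagonists, 1 passed the test in each genotype, XIAP in GFP cells and BIRC2 in LTR8B cells. XIAP, a direct caspase inhibitor, changed by 0.35 in LTR8B cells (SE 0.11, edgeR adjusted p = 0.144) and rose by 0.84 in GFP cells (SE 0.16, edgeR adjusted p = 0.00734). BIRC2, a ubiquitin ligase for RIPK1, rose by 0.35 in LTR8B cells (SE 0.08, edgeR adjusted p = 0.0135) and changed by 0.42 in GFP cells (SE 0.12, edgeR adjusted p = 0.0631). The difference between the genotypes did not pass for either (edgeR adjusted p = 0.996 each), and the XIAP call was lost on leaving out either GFP untreated library or replicate 2 of GFP IFNB (edgeR adjusted p of 0.0689 to 0.129). By DESeq2 both genes passed in both genotypes (DESeq2 adjusted p = 0.0378 for XIAP in LTR8B cells and 0.0242 for BIRC2 in GFP cells).

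BAK1 (ENSG00000030110.13, chromosome 6, 33572547 to 33580293, minus strand) encodes a protein that opens the outer mitochondrial membrane. It stood at 45.0, 50.6, 47.5 and 43.9 CPM in LTR8B IFNB libraries, against 34.7, 39.3, 34.3 and 36.7 CPM in LTR8B untreated libraries. In GFP IFNB libraries the values were 47.1 and 42.8 CPM, against 38.7 and 37.7 CPM in GFP untreated libraries. All IFNB libraries were above all untreated ones, by a small margin. BAK1 rose by 0.37 in LTR8B cells (SE 0.07, edgeR adjusted p = 0.00195), while its change of 0.23 in GFP cells (SE 0.10, 95% interval 0.03 to 0.43, edgeR adjusted p = 0.330) did not pass.

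Among the other BCL2 family genes, 1 of 5 pro-survival genes rose in each genotype, MCL1, by 0.26 in LTR8B cells (edgeR adjusted p = 0.00894) and 0.41 in GFP cells (edgeR adjusted p = 0.00491). In GFP cells that call was lost on leaving out replicate 2 of either treatment (edgeR adjusted p of 0.0965 and 0.107). Of 10 pro-death genes 8 were tested, of which 2 rose in LTR8B cells and 1 in GFP cells. PMAIP1, whose product NOXA binds and neutralises MCL1, rose in both, by 0.91 in LTR8B cells (SE 0.07, edgeR adjusted p = 8.71e-08) and by 1.07 in GFP cells (SE 0.10, edgeR adjusted p = 1.30e-06). PMAIP1 averaged 103 ± 6.10 CPM in LTR8B IFNB and 55.1 ± 5.84 CPM in LTR8B untreated libraries (SD, n = 4 each). In GFP cells PMAIP1 averaged 112 ± 6.61 CPM with IFNB and 53.5 ± 3.40 CPM untreated (SD, n = 2 each). BBC3, which encodes PUMA, rose by 0.35 in LTR8B cells (edgeR adjusted p = 0.0279) and changed by 0.36 in GFP cells (edgeR adjusted p = 0.184), and its LTR8B call was lost without LTR8B untreated replicate 1 or 4 or LTR8B IFNB replicate 1, 2 or 3 (edgeR adjusted p of 0.0641 to 0.114). The 2 tested genes of the apoptosome, APAF1 and CYCS, did not pass.

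**Figure D2:**
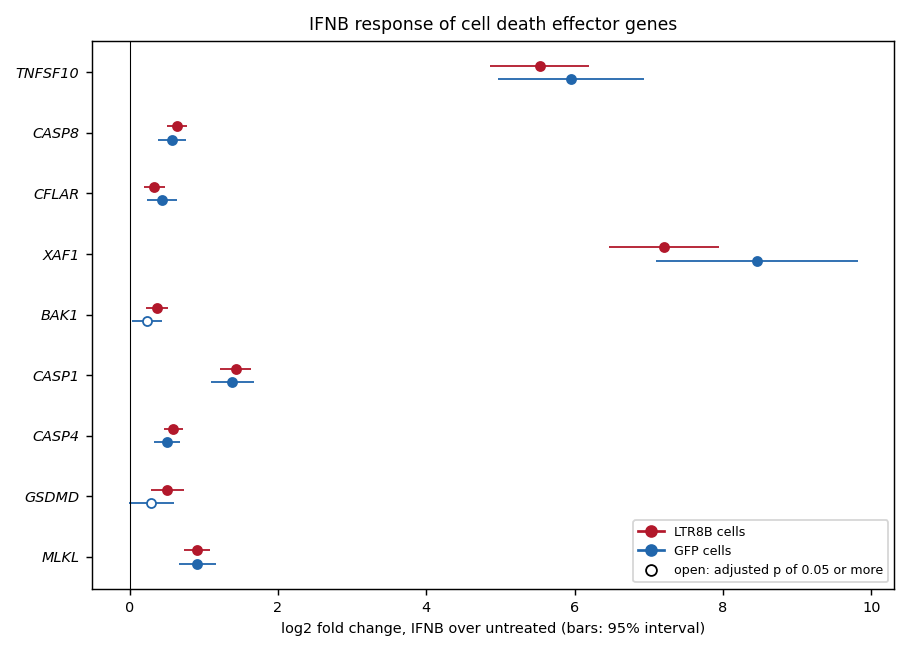
The log2 fold change of IFNB over untreated on the horizontal axis for each gene, with 95% intervals, in LTR8B cells and GFP cells; open points did not pass an edgeR adjusted p of 0.05. TNFSF10 (5.53 and 5.96) and XAF1 (7.20 and 8.46) stand apart from the other 7 genes, whose estimates lie between 0.23 and 1.43, and only BAK1 and GSDMD in GFP cells are open.

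CASP1 (ENSG00000137752.24, chromosome 11, 105025443 to 105035250, minus strand), the caspase of the inflammasome, had 16.0, 16.4, 18.5 and 15.9 CPM in LTR8B IFNB libraries, against 6.92, 5.82, 5.93 and 6.07 CPM in LTR8B untreated libraries. GFP IFNB libraries had 15.9 and 14.4 CPM, against 6.27 and 5.28 CPM in GFP untreated libraries. The 2 treatments were well separated in both genotypes. CASP1 rose by 1.43 in LTR8B cells (SE 0.10, edgeR adjusted p = 6.47e-09) and by 1.39 in GFP cells (SE 0.14, edgeR adjusted p = 1.61e-06) on the log2 scale. Its neighbour CARD16, a close copy of the part of CASP1 that encodes the CARD domain, had 0 to 8 counts per library, and counting may split reads of that part between the genes.

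CASP4 (ENSG00000196954.14, chromosome 11, 104942866 to 104969436, minus strand), which senses cytosolic lipopolysaccharide, lies close to CASP1. It stood at 85.2, 83.8, 88.6 and 89.6 CPM in LTR8B IFNB libraries, against 57.4, 61.0, 51.6 and 61.0 CPM in LTR8B untreated libraries. With IFNB the GFP libraries gave 84.4 and 80.8 CPM, against 58.2 and 58.2 CPM in GFP untreated libraries. The groups did not overlap. CASP4 rose by 0.59 in LTR8B cells (SE 0.06, edgeR adjusted p = 2.16e-06) and by 0.51 in GFP cells (SE 0.09, edgeR adjusted p = 0.00106) on the log2 scale.

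GSDMD (ENSG00000104518.11, chromosome 8, 143553207 to 143563062, plus strand), the pore former that both caspases cut, had 15.1, 16.7, 18.1 and 13.7 CPM in LTR8B IFNB libraries, against 10.2, 13.6, 10.7 and 10.2 CPM in LTR8B untreated libraries. In GFP IFNB libraries the values were 17.8 and 16.5 CPM, against 13.8 and 14.2 CPM in GFP untreated libraries. Treatments did not overlap within a genotype, but over all 12 libraries GSDMD was the only 1 of the 9 genes whose IFNB and untreated values overlapped. GSDMD rose by 0.51 in LTR8B cells (SE 0.11, edgeR adjusted p = 0.00657), while its change of 0.30 in GFP cells (SE 0.15, 95% interval -0.01 to 0.60, edgeR adjusted p = 0.473) did not pass.

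Of 15 inflammasome and pyroptosis genes 10 were tested, of which 3 rose in LTR8B cells and 2 in GFP cells. AIM2, a sensor of cytosolic DNA, stood at 47.4, 50.8, 50.2 and 41.9 CPM in LTR8B IFNB libraries, against 6.64, 7.88, 7.07 and 5.09 CPM in LTR8B untreated libraries. GFP IFNB libraries had 61.7 and 51.8 CPM of AIM2, against 8.43 and 8.34 CPM in GFP untreated libraries. AIM2 rose by 2.83 in LTR8B cells (SE 0.11, edgeR adjusted p = 1.58e-12) and by 2.76 in GFP cells (SE 0.15, edgeR adjusted p = 3.28e-10) on the log2 scale. NLRP3, another sensor, rose by 0.56 in LTR8B cells (edgeR adjusted p = 1.81e-04) and by 0.57 in GFP cells (edgeR adjusted p = 0.00538), the GFP call being lost on leaving out either untreated library or IFNB replicate 1 (edgeR adjusted p of 0.0540 to 0.108). MEFV, which encodes pyrin, rose by 1.81 in LTR8B cells (SE 0.53, edgeR adjusted p = 0.0464) on 8 to 18 counts per library in LTR8B IFNB against 0 to 8 in LTR8B untreated. That call was lost in 11 of the 12 fits that left out 1 library, all but the one without LTR8B untreated replicate 1 (edgeR adjusted p of 0.0593 to 0.178). PYCARD, the adaptor that couples AIM2 and NLRP3 to caspase-1, had 0 or 1 count per library, which was looked up after the other values were seen. AIM2, NLRP3 and CASP1 were thus measured well above the floor in IFNB libraries while the PYCARD transcript was not detectable above it.

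MLKL (ENSG00000168404.13, chromosome 16, 74671855 to 74700960, minus strand), the executor of necroptosis, stood at 64.8, 74.5, 73.9 and 67.6 CPM in LTR8B IFNB libraries, against 33.2, 41.8, 36.0 and 38.4 CPM in LTR8B untreated libraries. With IFNB the GFP libraries gave 77.9 and 61.9 CPM, against 39.2 and 35.1 CPM in GFP untreated libraries. The GFP IFNB replicates were farther apart than the LTR8B IFNB ones, and still no IFNB library reached the untreated range. MLKL rose by 0.91 in LTR8B cells (SE 0.09, edgeR adjusted p = 6.36e-07) and by 0.91 in GFP cells (SE 0.12, edgeR adjusted p = 6.33e-05) on the log2 scale. RIPK3, the kinase that activates MLKL and looked up here for its role, had a count of 0 in all 12 libraries, which allows up to 0.1005 to 0.244 CPM. ZBP1, a nucleic acid sensor that can engage RIPK3, rose in both genotypes, with 44 to 77 counts per library in LTR8B IFNB against 0 to 2 in LTR8B untreated, and 77 and 91 in GFP IFNB against 3 and 5 in GFP untreated. ZBP1 passed the low-count filter through its IFNB libraries alone.

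Over the 70 further cell death genes, listed with earlier results of these data known, 50 were tested. Of these 11 were higher and 0 lower in LTR8B cells, and 9 were higher and 0 lower in GFP cells, against 4.01% and 3.06% of all tested genes called higher. Among the 48 that passed the low-count filter in both treatments taken alone, which leaves out ZBP1, 10 were higher in LTR8B cells and 8 in GFP cells. The median log2 fold change of the 50 was 0.05 in LTR8B cells and 0.06 in GFP cells. The 2 sets of calls shared 8 genes, which is 8 of 11 and 8 of 9. Of the genes not tested, 2 had a count of 0 in every library and 16 had under 10 counts in every library.

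**Figure D3:**
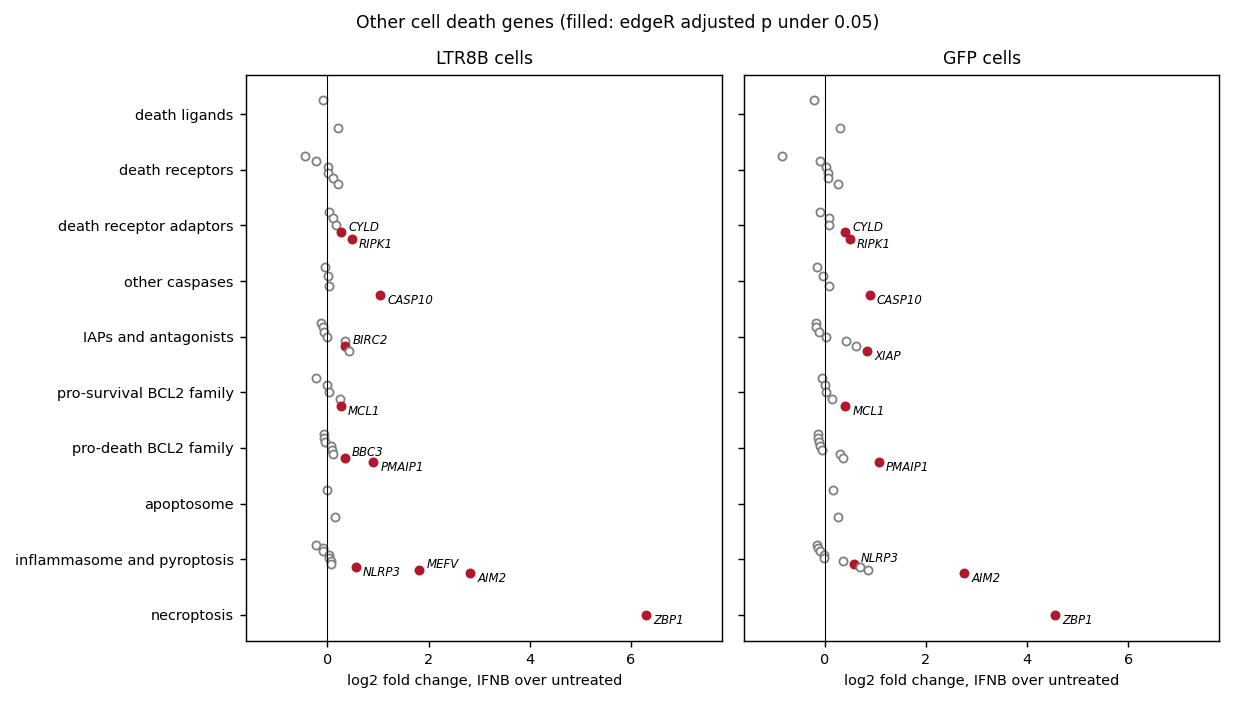
The log2 fold change of IFNB over untreated for the 50 tested further genes, with 1 row per group of genes and a panel each for LTR8B cells and GFP cells; filled, named points passed an edgeR adjusted p of 0.05. ZBP1, AIM2 (2.83 and 2.76), CASP10 (1.04 and 0.89) and PMAIP1 (0.91 and 1.07) lie to the right in both panels, and the rows of death ligands, death receptors and the apoptosome hold open points alone.

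Levels were compared between genes per kilobase of merged exon. BAK1 had the highest level in every group, at 21.1 ± 1.34 CPM per kilobase in LTR8B IFNB, 16.4 ± 1.03 in LTR8B untreated (SD, n = 4 each), 20.3 ± 1.37 in GFP IFNB and 17.3 ± 0.318 in GFP untreated libraries (SD, n = 2 each). In LTR8B IFNB libraries the order was then MLKL, CASP4, XAF1, CASP8, TNFSF10, CASP1, GSDMD and CFLAR. There MLKL and CASP4 overlapped, as did XAF1 and CASP8, XAF1 and TNFSF10, CASP8 and TNFSF10, and TNFSF10 and CASP1. In LTR8B untreated libraries the order after BAK1 was CASP4, MLKL, CASP8, GSDMD, CASP1, CFLAR, TNFSF10 and XAF1, with overlap between CASP4 and MLKL and between TNFSF10 and XAF1. The GFP groups had the same order as the LTR8B groups in each treatment, with overlap only between MLKL and CASP4 in GFP IFNB libraries. XAF1 moved to the fourth place in the IFNB groups, at 7.98 ± 1.45 CPM per kilobase in LTR8B IFNB against 0.0497 ± 0.0274 in LTR8B untreated libraries (SD, n = 4 each). CFLAR is divided by 22529 exonic bases, the longest merged model of the 9, and also shares exonic bases with IMPDH1P10, CFLAR-AS1 and AC007283.1, which had 0 to 29 counts per library. BAK1 has the shortest merged model of the 9, with 2212 exonic bases. Without this division BAK1 was not the highest, with a mean of 46.7 CPM against 86.8 CPM for CASP4 in LTR8B IFNB libraries.

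The genes most like each of the 9 were those with the smallest root mean square difference of centred log2(CPM + 1) over the 12 libraries, among 12989 genes. For TNFSF10 they were TMEM140 (0.161), CXCL10 (0.165) and PARP9 (0.170), and for XAF1 SAMD9L (0.201), OASL (0.206) and USP18 (0.216). For CASP1 they were MASTL (0.073), SHOX2 and CNP, for CASP4 TRAFD1 (0.056), INTS12 and STEAP1, and for CASP8 LIPA (0.079), B4GALT5 and AKAP7. SP140L, a relative of SP140, was the nearest to MLKL (0.063), followed by JADE2 and TRIM26. UNC93B1 (0.089), STING1 and PROCR were nearest to GSDMD, MED25 (0.058) and ATF5 to BAK1, and ENTPD1-AS1 (0.055), ZBTB43 and ATL3 to CFLAR. None of the 9 genes was among the 3 nearest to another of them.

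The effect of the LTR8B guide was then compared with the GFP guide, first without IFNB, then with it, and last as the mean of both treatments. None of the 9 genes passed the test in any of these comparisons, by edgeR or by DESeq2, where edgeR called 0.360% of all tested genes in untreated cells, 0.354% with IFNB and 2.14% averaged. At an unadjusted p under 0.05 there was 1 of the 9 genes in each comparison, GSDMD in untreated cells, XAF1 with IFNB and GSDMD averaged, against 11.2%, 9.48% and 15.8% of all tested genes. Counts of 1 in 9 are near these shares and are no result about the 9 genes. These comparisons share libraries with those of IFNB.

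XAF1 with IFNB was lower in all 4 LTR8B libraries (45.7 to 66.3 CPM) than in both GFP libraries (66.4 and 70.3 CPM), replicate 1 of LTR8B IFNB nearly reaching the lower GFP value. Its guide effect was -0.37 on the log2 scale (SE 0.14, 95% interval -0.67 to -0.08, edgeR adjusted p = 0.400) and did not pass. Without the low-count filter it did, at -0.36 (edgeR adjusted p = 0.0286), and over all alternatives its adjusted p ran from 0.0286 to 0.998. In untreated cells XAF1 had 3 to 17 counts per library, and its guide effect of 0.88 has an interval of -0.64 to 2.41.

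GSDMD was lower in all 4 LTR8B untreated libraries (10.2 to 13.6 CPM) than in both GFP untreated libraries (13.8 and 14.2 CPM), with a guide effect of -0.33 on the log2 scale (SE 0.13, 95% interval -0.60 to -0.06, edgeR adjusted p = 0.351). With IFNB its guide effect was -0.11 (95% interval -0.38 to 0.16, edgeR adjusted p = 0.844) and the libraries overlapped. CFLAR stood higher in all 4 LTR8B untreated libraries (24.9 to 28.7 CPM) than in both GFP untreated libraries (23.2 and 23.8 CPM), by 0.16 (95% interval -0.02 to 0.34, edgeR adjusted p = 0.497). For the other 6 genes the libraries of the 2 guides overlapped in both treatments. Over all tested genes they did not overlap, in either direction, for 19.6% in untreated cells and 19.0% with IFNB, so that 2 of the 9 genes untreated and 1 with IFNB are near or below the background.

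Averaged over the treatments, the 95% intervals of the guide effect were narrowest for CASP4 (-0.08 to 0.14), CASP8 (-0.13 to 0.11), BAK1 (-0.13 to 0.11) and CFLAR (-0.015 to 0.235) on the log2 scale, followed by MLKL (-0.15 to 0.16). Those of TNFSF10 (-0.58 to 0.61) and XAF1 (-0.52 to 1.03) were wide. The guide effect on SP140 itself was -4.61 in the same comparison (SE 0.17, edgeR adjusted p = 1.41e-11).

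**Figure D4:**
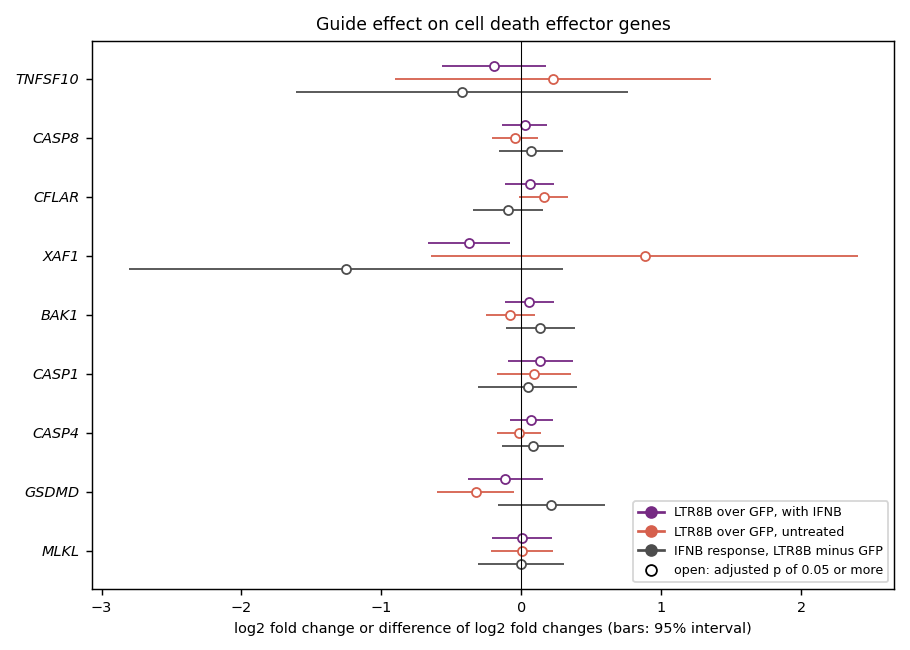
Guide effects (LTR8B over GFP) with IFNB and untreated, and the difference of IFNB responses (LTR8B minus GFP), on the log2 scale with 95% intervals; all points are open, meaning an edgeR adjusted p of at least 0.05. Intervals of XAF1 with IFNB (-0.67 to -0.08) and of GSDMD untreated (-0.60 to -0.06) lie below 0, and the widest belong to XAF1 and TNFSF10, which have few untreated counts.

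The difference of the IFNB responses, LTR8B minus GFP, asked whether the guide altered induction. It passed for 0 of the 9 genes and for 0% of all tested genes by edgeR, and for none by DESeq2, with 0 of the 9 and 489 of all genes at an unadjusted edgeR p under 0.05. Differences were 0.05 for CASP1 (95% interval -0.31 to 0.40), 0.09 for CASP4 (-0.14 to 0.31), 0.07 for CASP8 (-0.16 to 0.30) and 0.00 for MLKL (-0.31 to 0.31) on the log2 scale. For GSDMD the difference was 0.21 (-0.17 to 0.60) and for BAK1 0.14 (-0.11 to 0.38), so that the calls of these 2 genes in LTR8B cells alone are not shown to differ from GFP cells, where fewer libraries were available. CFLAR had a difference of -0.10 (-0.35 to 0.15). The largest differences, -0.42 for TNFSF10 (-1.61 to 0.77) and -1.25 for XAF1 (-2.81 to 0.30), rest on the few counts of untreated libraries.

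Of the 50 further genes tested, 0 passed for a guide effect in either treatment or for their mean, and 0 for the difference of responses, by edgeR. By DESeq2 0 passed as well, but it gave an adjusted p to only 45 of the 50 for the untreated guide effect and to 46 for the mean. At an unadjusted edgeR p under 0.05 there were 9 of the 50 for the guide effect without IFNB, 1 with IFNB, 9 for the mean and 3 for the difference, against 11.2%, 9.48%, 15.8% and 2.98% of all tested genes. Without the low-count filter 4 of them passed for the mean of both treatments, named here after their values were seen. Their guide effects were 0.22 for BIRC2 (edgeR adjusted p = 0.0127), -0.21 for BBC3 (edgeR adjusted p = 0.0450), -0.29 for AIM2 (edgeR adjusted p = 0.0162) and -1.13 for MEFV (edgeR adjusted p = 0.0354). For that mean 775 of all 35398 genes passed without the filter, against 351 of 16393 with it.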

How the data were processed

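Polyadenylated RNA of 12 HT1080 libraries was used as whole-number counts per gene, deposited by the authors. Per the submitters' processing notes, Salmon 0.13.1, DESeq2 1.38.3 and hg38 were used, but the step each was used for is not given in the sources used here. A second table of the authors, of normalized values, was not used.

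Identifiers were matched to symbols (60415 of 60669) and to GENCODE release 29. The test was that of edgeR 4.0.16 (R 4.3.3). The filterByExpr rule over the 4 groups (minimum count 10, minimum total 15) left 16393 genes, which were scaled by TMM and fitted in 1 robust quasi-likelihood model over all 12 libraries with 1 mean per group. Fold changes are log2, SE and 95% intervals come from the fitted model, and p-values were adjusted by Benjamini-Hochberg over all tested genes at 0.05. The fit was tested on simulated counts with the same spread beyond counting error set for every gene. Known changes were set only in genes with higher mean counts. This does not cover genes with few untreated counts, such as TNFSF10 and XAF1. No 2 replicates were duplicates (chi-square per degree of freedom 2.74 to 17.4). Python 3.11.15, pandas 2.3.3, NumPy 2.4.6 and matplotlib 3.10.9 were used for tables and figures.

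The 9 genes and the 70 further genes were chosen with earlier results of these data known. Named were the 9 genes, up to 4 further genes per group and comparison with the smallest adjusted p among those past the threshold, and the 3 genes most like each of the 9 with a mean of at least 1 CPM and a pseudocount of 1; other genes are marked where named. Some genes are not reported here. Alternatives were DESeq2 1.42.0, median-of-ratios (RLE) scaling, no low-count filter, a replicate block and leaving out each library.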

Additional observations from a re-analysis of the deposited data

Results flagged for a closer look

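In groups of 4 libraries, the gap of the highest or lowest library to its neighbour was divided by the range of the group, for each of the 9 genes and the further genes past the threshold in an IFNB response. Of 42 gene and group pairs 4 exceeded Dixon's critical ratio at 95%, and chance flags about 1 in 20. GSDMD in LTR8B untreated replicate 2, at 13.6 CPM, stood above the other 3 libraries (ratio 0.865). BBC3 in LTR8B untreated replicate 4 was lowest, at 38.4 CPM (ratio 0.891). MCL1 in LTR8B IFNB replicate 4 was highest, at 458 CPM (ratio 0.866). NLRP3 in LTR8B IFNB replicate 3, the shallowest library, was lowest at 30.8 CPM (ratio 0.840).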

How the results depend on the processing

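Over 16 alternatives, 859 of 864 values of the 9 genes kept their side of the threshold, and 813 of these also their direction. The other 46, in 12 guide effects or differences of responses, changed sign at an adjusted p over 0.05. The 5 that crossed the threshold were CFLAR in GFP cells, which lost its call without any 1 GFP library (edgeR adjusted p of 0.0791 to 0.174), and the guide effect on XAF1 with IFNB, which passed without the low-count filter, so that 1 of the 9 genes was called there. Numbers called in the IFNB response of GFP cells were 6 to 7 on leaving out 1 library, and 9 in each such fit of LTR8B cells. With a replicate block the numbers were 9 in LTR8B cells, 7 in GFP cells and 0 for guide effects and the difference, so the block changed no call of the 9. Among the 50 further genes it gave 14 calls in LTR8B cells, against 11, adding FAS (edgeR adjusted p = 0.0170), XIAP (0.0310) and BIRC3 (7.34e-04), and 12 in GFP cells, against 9, adding BIRC2 (0.00917), BIRC3 (0.00101) and BBC3 (0.0203). Same-numbered LTR8B libraries correlated at 0.278, 0.288, 0.079 and 0.268 in their deviations from group means, against -0.255 to 0.087 for unlike numbers. Same-numbered GFP libraries correlated at 0.146 and unlike numbers at -0.146, values that must mirror each other with 2 libraries per group. Each LTR8B IFNB library correlated best with its own number, while LTR8B untreated replicate 3 did so with IFNB replicate 4 (0.087). The labels do not say what the numbers stand for, and the main fit did not use them.

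On leaving out 1 library, the untreated guide effect ran from -0.041 to 0.50 for TNFSF10, -0.024 to 0.227 for CASP1, -0.040 to 0.038 for CASP4 and -0.071 to 0.089 for MLKL (-0.001 without the low-count filter). With IFNB it ran from -0.148 to 0.183 for MLKL and -0.007 to 0.131 for BAK1. Averaged, it ran from -0.12 to 0.152 for TNFSF10 (-0.018 with the replicate block), -0.035 to 0.008 for CASP8, -0.071 to 0.096 for MLKL and -0.043 to 0.028 for BAK1 (0.019 with the block). The difference of responses ran from -0.088 to 0.166 for CASP1 and -0.153 to 0.174 for MLKL, whose main value of -0.002 became 0.003 with DESeq2, 0.004 with RLE scaling, 0.019 without the filter and 0.003 with the block. The cause was not tested.

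Background counts moved more. Guide effects in untreated cells numbered 59 over all genes, against 177 with DESeq2, 325 without the filter and 22 to 94 on leaving out 1 library. The numbers with IFNB were 58, against 120, 260 and 21 to 69, and those for the mean of both treatments 351, against 590, 775 and 93 to 461 (181 with the replicate block). For the difference they were 0, against 0, 13 and 0 to 1 (4 with the block). In GFP cells 524 genes responded to IFNB, against 599 with DESeq2, 676 without the filter, 344 to 594 on leaving out 1 library and 747 with the block. In LTR8B cells 737 responded, against 819, 927, 602 to 738 and 1040. Without the filter 35398 genes were tested. Depth limits TNFSF10 and XAF1 in untreated libraries, at 2 to 17 counts.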
